A study of Mus musculus with 6 samples.

Results

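The renin-angiotensin system genes described here are Ren1, Agt, Ace, Agtr1a, Agtr1b, Enpep, Mme and Atp6ap2, 8 of the 33696 genes listed for single cells of the mouse kidney. They were chosen by symbol, and the unique molecular identifiers (UMIs, each standing for 1 captured RNA molecule) of each gene were summed per mouse and marker-defined cell class over barcodes with at most 50% mitochondrial UMIs. The kidneys came from male C57BL/6 mice, 3 in the sham group and 3 in the DOCA-salt group, with 1 library of the 10x Genomics 3′ method per mouse. The age given is 8 to 10 weeks, which in the paper is that at purchase, before the surgery. DOCA-salt mice had lost the left kidney and, a week later, received a 50 mg pellet of deoxycorticosterone acetate (DOCA), a mineralocorticoid, under the skin and 1% NaCl to drink for 21 days. Sham mice had a sham surgery, normal water and no pellet, so nephrectomy, DOCA and salt cannot be told apart.

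Renin, which Ren1 encodes, is an enzyme released by granular cells of the smooth muscle lineage in the wall of the afferent arteriole, and it cuts angiotensinogen (Agt) to angiotensin I. Angiotensin converting enzyme (Ace) makes angiotensin II from it, and the type 1 receptors (Agtr1a and Agtr1b) carry most of the pressor and salt-retaining actions of that peptide. Aminopeptidase A (Enpep) and neprilysin (Mme) break the peptides down further, and the (pro)renin receptor (Atp6ap2) is also an accessory protein of the vacuolar proton pump. In the kidney, high salt and volume expansion are known to lower renin, and the macula densa, a patch of thick ascending limb cells, takes part in that control through nitric oxide and prostaglandins.

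The libraries held 11058 to 14449 barcodes and 93172739 to 137819127 UMIs. Of these barcodes, 60561 passed the limits of 50% for mitochondrial and 5% for hemoglobin UMIs. A further 4931 were removed as likely doublets (2 cells under 1 barcode) by their Scrublet score, which left 55630 cells, 7701 to 9933 per mouse. This removal was among the choices that changed the whole-kidney call of Ren1, which is therefore given with and without it. Levels are counts per 1000000 UMIs of the sum (CPM), and they were not compared between genes. Changes are DOCA-salt against sham on the log2 scale with their standard error (SE), tested with edgeR's quasi-likelihood test and called at a Benjamini-Hochberg adjusted p below 0.05 over all genes tested. Each pair of libraries shared 33 to 69 barcodes. In these sums, fewer cells of a type and less RNA per cell cannot be told apart.

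Levels were ordered across 20 cell classes with at least 10 cells in every mouse. Ren1, Agtr1a, Agtr1b and Enpep had their highest mean in the same class, and Agt, Ace, Mme and Atp6ap2 each in a different one. Ren1 was highest in the smooth muscle cell (SMC) and pericyte class, with a mean level of 849 CPM over the 6 mice (SD 900) against 5.96 CPM in monocytes, the next class. Agtr1b was found almost solely in the same class, at 27.1 CPM (SD 9.74), and Agtr1a was highest there at 176 CPM (SD 27.9), above the 60.1 CPM (SD 7.51) of proximal tubule (PT) segment S1. Agt was highest in PT S3 at 169 CPM and in the thin limb at 157 CPM, whose ranges over the mice overlapped. The PT S3 class joined clusters of 138 and 114 cells. Clusters of 1849 and 1378 cells had Slc7a13, an S3 marker used here, among their leading genes but scored highest for segment S2. They were given no segment, so PT S3 values are those of this small class and not of the whole segment. Ace was highest in monocytes, at 224 CPM (SD 81.4), without overlap with PT S3 at 63.8 CPM (SD 23.8). Enpep had its highest means in the SMC and pericyte class (137 CPM) and in the Parietal-like class (133 CPM), which did not differ beyond their spread. Mme stood at 966 CPM (SD 64.8) in type A intercalated cells (IC type A), above every other class, and next at 189 CPM in PT S3. Atp6ap2 was found in all 20 classes and was highest in IC type B at 596 CPM (SD 94.6), followed by IC type A at 394 CPM (SD 63.2).

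**Figure D1:**
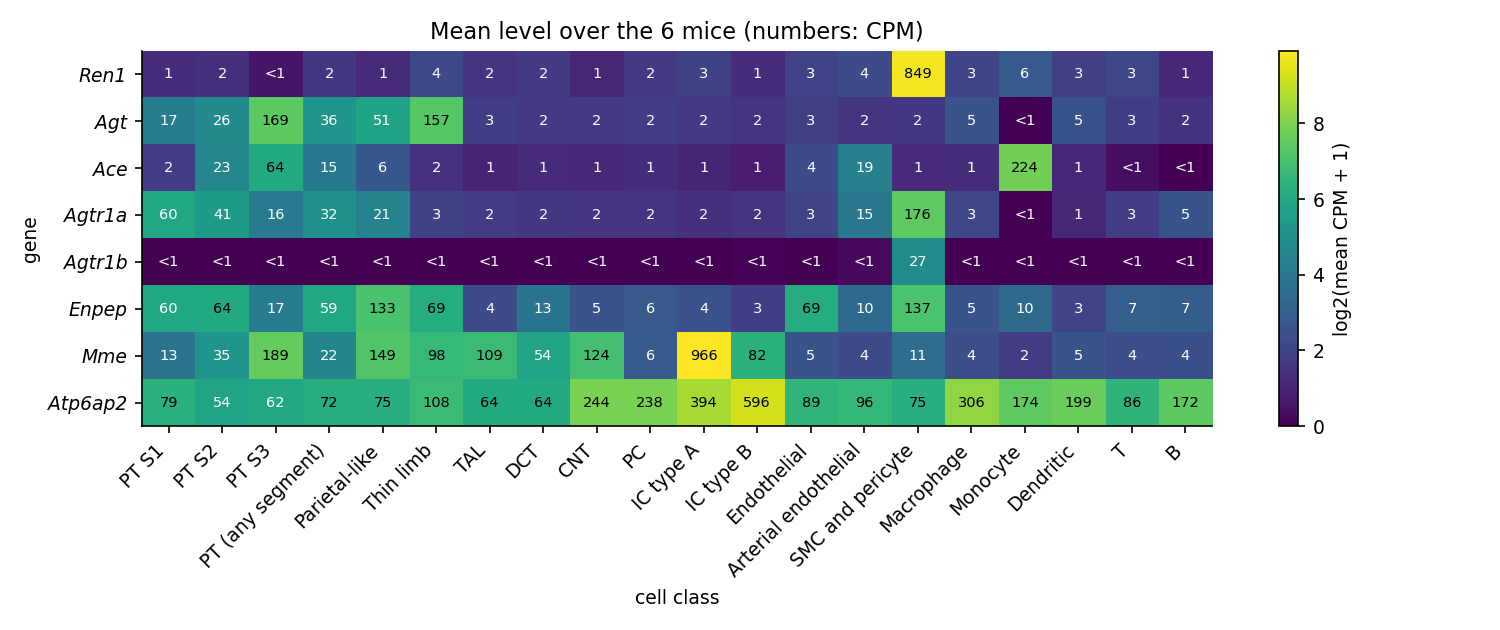
Mean level of each of the 8 genes (rows) in the 20 cell classes (columns), as log2(mean CPM + 1) over the 6 mice in color, with the mean CPM printed in each field. Ren1 and Agtr1b stand out in the SMC and pericyte class, Mme in IC type A, and Atp6ap2 in both intercalated classes, while Ace is highest in monocytes.

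In the whole-kidney sums 1 of the members, Agt, rose after doublet removal, as did 11.5% of the 19658 genes tested, and 0 fell, where 5.69% of all genes fell (17.2% in either direction). Without doublet removal Ren1 fell as well, as did 5.89% of the genes tested there (17.9% in either direction). The 20 classes gave 71 tests of members, with 12 called higher and 7 called lower in DOCA-salt mice, beside 6.48% of the 187340 tests of all genes in these classes. Of the 7 lower calls, 3 were Ren1 in PT classes, at sham levels no higher than 5.22 CPM.

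Ren1 (GRCm39, chromosome 1, 133278248 to 133288063, plus strand, 9 exons) overlaps no other annotated gene. Agt rose in the whole kidney in every setting run, while the whole-kidney change of Ren1 was negative in every setting run and its call depended on the setting. The 250 bases before the RefSeq start of Ren1 (GRCm38.p6, chr1:133350424-133350673, plus strand) are shown for this pair of genes, beginning with Ren1, with the letters TATAAA of the TATA box in capitals, 29 to 24 bases before the start.
Ren1: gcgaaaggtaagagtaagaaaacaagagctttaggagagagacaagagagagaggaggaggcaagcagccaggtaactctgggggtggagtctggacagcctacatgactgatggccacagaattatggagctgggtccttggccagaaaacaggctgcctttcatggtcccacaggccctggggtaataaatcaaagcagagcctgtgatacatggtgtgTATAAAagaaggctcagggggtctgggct

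Over all barcodes with at most 50% mitochondrial UMIs, the sham mice had 55.9, 54.3 and 50.8 CPM of Ren1 (5775, 4044 and 3699 UMIs) and the DOCA-salt mice 4.48, 2.18 and 5.10 CPM (453, 251 and 404 UMIs). Every sham mouse was far above every DOCA-salt mouse, with a mean of 53.7 CPM ± 2.64 (SD, n = 3) against 3.92 ± 1.54 (n = 3). The log2 change was -3.90 (SE 0.29, edgeR adjusted p = 0.000254). After doublet removal, the setting chosen as the main one, the sham mice had 19.1, 2.62 and 14.3 CPM and the DOCA-salt mice 4.18, 2.26 and 4.12 CPM. Sham 2 then lay within the DOCA-salt group. The log2 change was -1.90 (SE 0.61), which was not called (edgeR adjusted p = 0.0707), and leaving out 1 mouse moved it from -2.38 (without sham 2, SE 0.26, adjusted p = 0.00107) to -1.40 (without sham 1, adjusted p = 0.226). It was called without sham 2 and in none of the other 5 cases. With no filter on low counts it was -1.90 with a call (adjusted p = 0.0387).

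The 2 settings differed through few cells. A Ren1-rich cell was defined as one with at least 10 Ren1 UMIs. Without doublet removal, sham mice had 15, 9 and 23 such cells and DOCA-salt mice 8, 7 and 9. Doublet removal took 5, 6 and 10 of them from the sham mice and 1, 0 and 2 from the DOCA-salt mice. The cells taken held 4010, 3843 and 2721 Ren1 UMIs in the sham mice and 44, 0 and 91 in the DOCA-salt mice. The 21 sham cells removed had a median of 4899 UMIs in all, where the SMC and pericyte cells kept from the sham mice had medians of 3360.5 to 4798. They had a median of 23 UMIs of SMC and pericyte markers and 4 of PT markers, and 15 of them lay in the SMC and pericyte class when the clustering was done without removal. In 14 of the 21 the SMC and pericyte marker UMIs were at least as many as those of PT, TAL and endothelial cells each, and in the others at least 1 of these types had more. A single removed barcode of sham 2, with 30718 UMIs in all and 182 PT against 24 SMC and pericyte marker UMIs, held 1875 of that mouse's 4044 Ren1 UMIs. The 3 DOCA-salt cells removed had more UMIs in all, 18362 in 1 library and a median of 13197.5 in the other. Whether the removed barcodes were single cells was not tested.

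The cells with the most Ren1 were nearly all from sham mice. Cells with at least 100 Ren1 UMIs numbered 7, 5 and 10 in the sham mice and 1, 0 and 0 in the DOCA-salt mice without doublet removal, and 15 of the 22 sham cells were among those removed. The highest cell of the sham mice held 2019 Ren1 UMIs, 22.5% of its total, and the highest of the DOCA-salt mice held 167. Ren1-rich cells held 92.9%, 96.7% and 88.0% of all Ren1 UMIs of the sham mice and 82.8%, 63.8% and 77.7% of those of the DOCA-salt mice. Per 10000 cells, Ren1-rich cells numbered 15.3 ± 5.26 in sham and 7.85 ± 1.03 in DOCA-salt mice (SD, n = 3 each) without removal, with no overlap (two-sided exact permutation p = 0.1, the smallest that 3 against 3 allows). After removal they numbered 9.04 ± 4.69 and 7.48 ± 0.37 (exact p = 0.7), so a difference in their number was not detectable there.

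**Figure D2:**
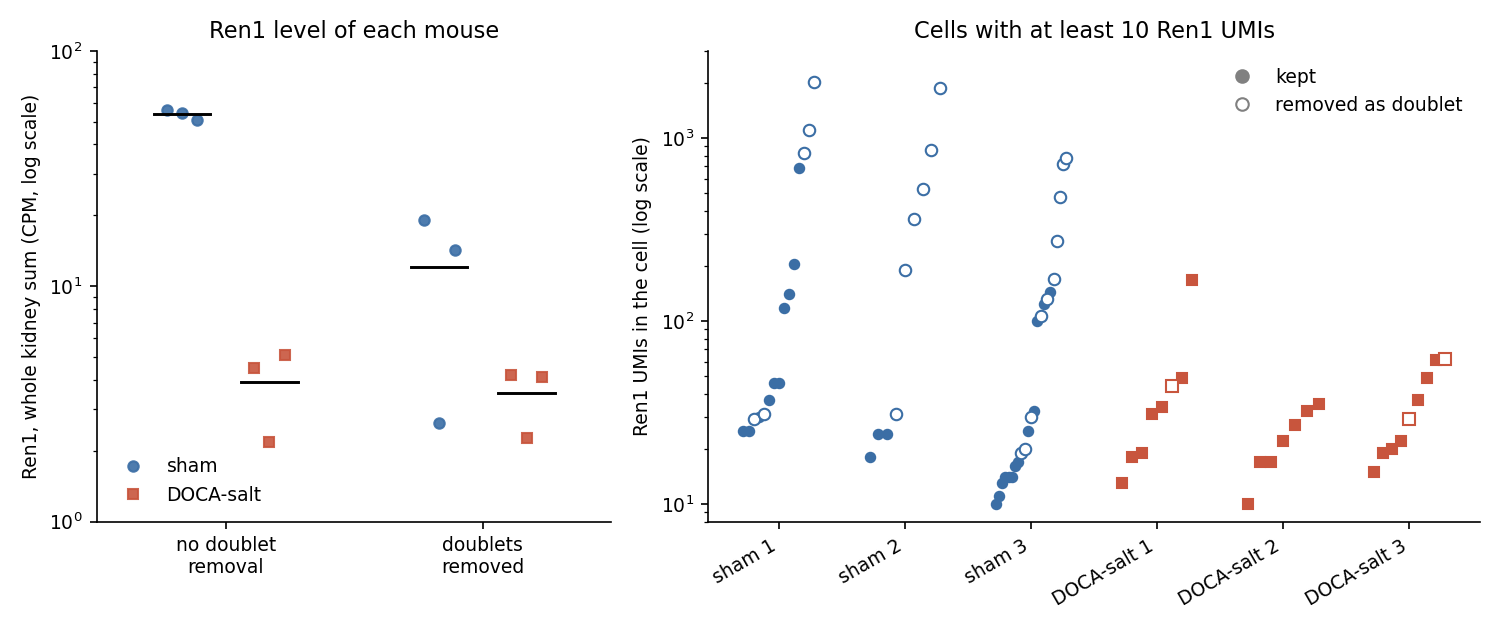
Left, Ren1 in the whole-kidney sum of each mouse in CPM on a log axis, without and with removal of likely doublets, with the group means as lines; right, the Ren1 UMIs of every cell with at least 10 of them on a log axis, with open symbols for cells removed as doublets. The 3 sham mice lie between 50.8 and 55.9 CPM without removal and spread from 2.62 to 19.1 CPM with it, and the sham cells with the most Ren1 UMIs are open symbols.

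Within the SMC and pericyte class (104, 126 and 134 cells in sham, 99, 100 and 89 in DOCA-salt mice), whose own 8 markers were all detected in both groups, Ren1 after removal stood at 2586, 170 and 1028 CPM in the sham mice. The DOCA-salt mice had 541, 294 and 472 CPM, and the groups overlapped through sham 2. The log2 change was -1.59 (SE 0.52, edgeR adjusted p = 0.178), while 1.65% of the 7228 genes tested in the class were called and no member was. Leaving out 1 mouse moved it from -2.12 (without sham 2, adjusted p = 0.000253) to -0.53 (without sham 1, not called). With no filter on low counts it was -1.54 with a call (edgeR adjusted p = 6.94e-14). Ren1 was tested with and without this filter at nearly the same change, and sham 2 lay below every DOCA-salt mouse. This p-value therefore does not measure the spread over the mice. Without removal the class had 8897, 3359 and 3376 CPM in the sham mice and 527, 255 and 556 CPM in the DOCA-salt mice, all sham mice being higher. The log2 change was then -3.59 (SE 0.38, adjusted p = 0.000334), where 1.36% of the genes tested were called. The cells of the class with fewer than 10 Ren1 UMIs stood at 59.9, 49.3 and 49.0 CPM in sham and 49.2, 66.5 and 76.5 CPM in DOCA-salt mice after removal, values that the choice by Ren1 UMIs limits and that were not tested. All cells of the kidney with fewer than 10 stood at 4.15, 1.65 and 6.09 CPM in sham and 0.558, 0.707 and 0.997 CPM in DOCA-salt mice, every sham mouse being higher. After removal, 12.7% to 18.3% of class cells in sham and 14.1% to 20.2% in DOCA-salt mice had a Ren1 UMI. Median depths were 3360.5 to 4798 and 4932 to 6560 UMIs per cell. With cells thinned to the same number of UMIs, the shares were 8.13% to 14.4% and 10.4% to 14.6%. By the clustering without removal, the class lost 5, 5 and 5 Ren1-rich cells in sham and 0, 0 and 1 in DOCA-salt mice. The shares without removal were not tested.

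Ren1 UMIs were also scattered over all other classes of the sham mice at a low level. In macrophages, which are not known to make renin, 1.49% to 3.95% of sham cells had a Ren1 UMI (median 3623 to 4288 UMIs per cell), and in the PT 1.24% to 3.95% (median 7483 to 10241 UMIs). The corresponding shares in DOCA-salt mice were 0.156% to 0.294% and 0.186% to 0.286%. The PT sum had 3.60, 1.20 and 4.37 CPM of Ren1 in the sham mice and 0.171, 0.267 and 0.350 CPM in the DOCA-salt mice, which was called as a fall (log2 change -3.62, SE 0.52, edgeR adjusted p = 0.00745), where 6.77% of the genes tested were called. PT S1, PT S2 and PT cells of no assigned segment (called PT of any segment) gave calls in the same direction (log2 changes -4.67, -2.61 and -3.88). The PT S1 call was lost without DOCA-salt 1 or DOCA-salt 3 (edgeR adjusted p = 0.0506 and 0.0633). That of PT S2 was lost without sham 1, DOCA-salt 1 or DOCA-salt 2 (edgeR adjusted p = 0.0532, 0.0647 and 0.052). The PT shares overlapped those of macrophages, at a greater depth per cell. The part of free RNA in these low values was not tested.

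Of 10 genes of renin cells and of the control of renin release, all were tested in the whole kidney. Ptgs2, Prkg2 and Ptger4 rose and Nos1 fell, where 11.5% of all genes tested rose and 5.69% fell. The list's median log2 change was 0.19, beside -0.03 over all genes tested. Nos1, the neuronal nitric oxide synthase of the macula densa, had 28.2, 24.5 and 23.4 CPM in the thick ascending limb (TAL) of sham mice and 4.27, 2.25 and 5.38 CPM in that of DOCA-salt mice. Every sham mouse was higher, with a log2 change of -2.74 (SE 0.24, edgeR adjusted p = 0.000222), where 1.67% of the 12176 genes tested in TAL were called. In the whole kidney the change of Nos1 was -2.25 (SE 0.28, adjusted p = 0.00187).

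Ptgs2, the inducible cyclooxygenase of prostaglandin synthesis, rose in the whole kidney by 1.51 on the log2 scale (SE 0.16, edgeR adjusted p = 0.00109). In the SMC and pericyte class it had 5.61, 1.85 and 7.84 CPM in sham mice and 121, 30.5 and 40.0 CPM in DOCA-salt mice. The groups did not overlap, and the log2 change was 3.56 (SE 0.62, adjusted p = 0.00462). Leaving out 1 mouse moved it between 2.68 (without DOCA-salt 1) and 4.01 (without sham 3), always with a call. Of its UMIs in DOCA-salt mice, 99 were in cells of the class that were not Ren1-rich and 17 in the Ren1-rich ones. The former made up 93, 93 and 82 of the 99, 100 and 89 class cells. In those other cells Ptgs2 stood at 6.19, 1.90 and 8.53 CPM in sham and 136, 28.5 and 18.6 CPM in DOCA-salt mice, without overlap. DOCA-salt 1 supplied 72 of the 99 UMIs, from 10 cells, and the gene was below the filter on low counts when Ren1-rich cells were left out, so no test was made there.

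Akr1b7, an aldo-keto reductase that marks renin cells, had 323, 146 and 241 CPM in the SMC and pericyte class of sham mice and 71.4, 185 and 87.2 CPM in that of DOCA-salt mice. Sham 2 lay below DOCA-salt 2, and the log2 change of -1.08 (SE 0.30) was not called (edgeR adjusted p = 0.0927). Without sham 2 it was -1.35 with a call (SE 0.27, edgeR adjusted p = 0.00861), and without doublet removal -1.54 (SE 0.32, adjusted p = 0.0296). Of the Ren1-rich cells without removal, 35 of 47 in sham and 8 of 24 in DOCA-salt mice had an Akr1b7 UMI, at median depths of 3325 to 5132 UMIs per cell in sham and 6152 to 12460 in DOCA-salt mice. Prkg2, a cGMP-dependent kinase known to restrain renin release, rose in the whole kidney by 0.77 (SE 0.18, adjusted p = 0.0213), and Ptger4, the prostaglandin E2 receptor EP4, by 0.84 (SE 0.17, adjusted p = 0.0127). The Prkg2 call was lost in 5 of 15 alternatives, without sham 1, sham 3, DOCA-salt 2 or DOCA-salt 3 and with the replicate block (0.67 to 0.81, adjusted p up to 0.0852), and that of Ptger4 without sham 1 (adjusted p = 0.0565). In the SMC and pericyte class Prkg2 stood at 234, 253 and 153 CPM against 344, 285 and 289 CPM without a call (log2 change 0.48, SE 0.19, adjusted p = 0.271).

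**Figure D3:**
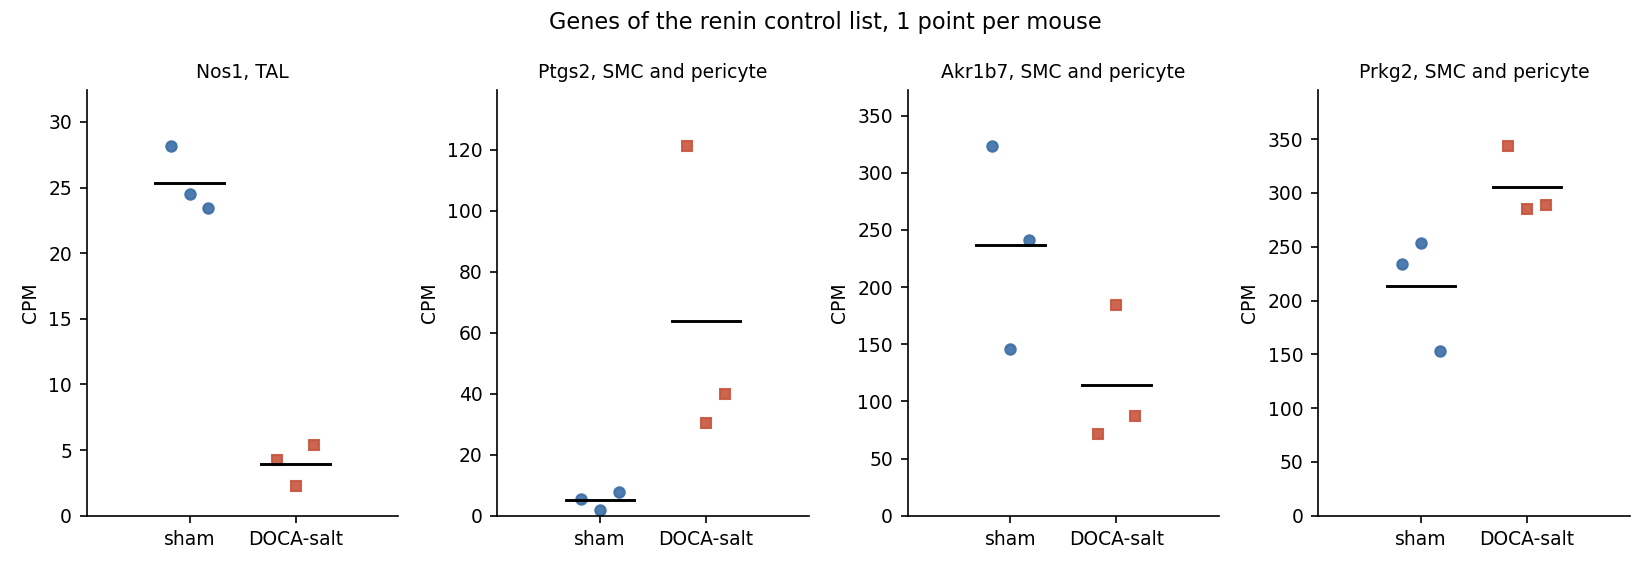
CPM of Nos1 in TAL and of Ptgs2, Akr1b7 and Prkg2 in the SMC and pericyte class after doublet removal, with 1 point per mouse, the group means as lines and axes from 0. Nos1 is higher in all 3 sham mice, Ptgs2 and Prkg2 in all 3 DOCA-salt mice, and the groups overlap for Akr1b7.

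The list also gave calls in other classes. Adcy6, an adenylyl cyclase, rose in PT S2 by 0.67 (SE 0.15, edgeR adjusted p = 0.0216), where 8.42% of the genes tested were called. Adcy5 rose by 0.98 (SE 0.21) in IC type B, with 22.3 to 34.8 CPM in sham and 44.1 to 59.5 CPM in DOCA-salt mice. Ptger4 fell in the Parietal-like class by 1.66 on the log2 scale (SE 0.21). Over the 20 classes 66 tests of the list gave 6 higher and 2 lower calls, beside 6.48% of the tests of all genes. In the PT, endothelial and stromal sums 19 tests gave 2 higher and 6 lower calls, beside 14.7% of the tests of all genes. Ptgs2 and Ptger4 were lower in the endothelium. Prkg2, Akr1b7, Adcy6 and Adcy5 were lower and Ptger4 higher in the stroma, and Adcy6 was higher in the PT. The cell makeup of the endothelial and stromal sums differed between the groups, as described below.

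Agt (GRCm39, chromosome 8, 125279301 to 125296716, minus strand, 5 exons) overlaps Cog2 and Capn9, both on the other strand. Whether reads were counted by strand is not given in the sources used here. Its 250 bases before the RefSeq start (GRCm38.p6, chr8:124569707-124569956, minus strand), shown for comparison with Ren1, hold TATAAA, in capitals, 30 to 25 bases before the start.
Agt: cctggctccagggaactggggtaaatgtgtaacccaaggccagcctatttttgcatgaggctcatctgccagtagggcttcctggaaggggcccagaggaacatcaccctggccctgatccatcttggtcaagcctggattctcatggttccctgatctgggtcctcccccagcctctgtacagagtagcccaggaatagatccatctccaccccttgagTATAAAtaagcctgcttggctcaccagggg

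The letters TATAAA or TTTATA, the same on the other strand, occurred in 5 of the 10 windows found for 7 of the members (none was matched for Agtr1a, and Ace and Mme had several, of which 2 of Mme overlapped) and in 12.3% of 32526 such windows of all genes. The letters AGAACA (or TGTTCT), the core of sites that steroid receptors including the mineralocorticoid receptor can bind, occurred in 1 of the 10 windows, that of Atp6ap2, and in 16.0% of all windows. These are matches of letters and not binding sites.

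Agt rose in the whole kidney. Sham mice had 14.2, 15.5 and 9.62 CPM and DOCA-salt mice 39.5, 31.8 and 38.7 CPM, so that every DOCA-salt mouse was higher (13.1 ± 3.09 against 36.7 ± 4.22, SD, n = 3 each). The log2 change was 1.37 (SE 0.18, edgeR adjusted p = 0.00205). The PT held 61.9% of the Agt UMIs in sham and 60.7% in DOCA-salt mice, with 51.7% and 46.4% of the cells. The thin limb held 28.9% and 20.1%, with 2.58% and 1.61% of the cells.

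The rise was steepest in PT S1, the first part of the PT. There the sham mice had 5.38, 4.82 and 3.83 CPM and the DOCA-salt mice 30.4, 20.9 and 35.8 CPM. The log2 change was 2.55 (SE 0.22, edgeR adjusted p = 0.000453), and 3.44% of the 13937 genes tested in PT S1 were called. The share of PT S1 cells with an Agt UMI was 3.12% to 5.81% in sham and 21.7% to 24.0% in DOCA-salt mice at medians of 8354 to 12474 and 9995 to 13980 UMIs per cell. Thinned to 1000 UMIs per cell it was 0.347% to 0.454% and 1.78% to 3.03%. In macrophages, where Agt did not separate the groups, the unthinned share was 1.49% to 2.21% and 1.82% to 2.94%, at fewer UMIs per cell. Thinned it was 0.16% to 0.73% and 0.52% to 0.86%. The sham levels of PT S1 lay within the range of macrophages, 3.65 to 5.95 CPM over all mice. The part of free RNA in these values was not tested.

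PT S2 had 13.6, 16.2 and 8.23 CPM of Agt in sham mice and 39.3, 29.1 and 49.0 CPM in DOCA-salt mice (log2 change 1.70, SE 0.24, edgeR adjusted p = 0.00269). PT of any segment rose by 1.52 (SE 0.21, adjusted p = 0.00668, and 0.0549 with the replicate block), where 6.63% of the genes tested were called. In PT S3, where Agt was already high, the sham mice had 97.6, 202 and 88.7 CPM and the DOCA-salt mice 217, 186 and 225 CPM. The groups overlapped (log2 change 0.70, SE 0.28, adjusted p = 0.435), and this class had only 33, 11 and 19 cells in sham and 73, 70 and 46 in DOCA-salt mice. The change in PT S3 was smaller than that in PT S1 by 1.62 on the log2 scale (SE 0.28, adjusted p = 5.22e-06, tested as a difference of changes with the mouse as a block, where 1.63% of 12980 genes were called). The p-values of this fit are those of a normal distribution for change over SE. They do not measure the gene's own spread over the mice.

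The thin limb had 90.2, 94.7 and 63.9 CPM of Agt in sham mice and 262, 256 and 175 CPM in DOCA-salt mice. All DOCA-salt mice were higher, with a log2 change of 1.51 (SE 0.18, edgeR adjusted p = 0.00565), and 0.654% of the 11612 genes tested there were called. The Parietal-like class, named from Cldn1, Wt1, Ncam1, Akap12 and Dkk3, had 33.0, 31.3 and 36.2 CPM in sham and 72.4, 52.4 and 82.1 CPM in DOCA-salt mice. It was called (log2 change 1.11, SE 0.20, adjusted p = 0.00230), but 23.5% of its genes were, and at a finer clustering the value was -0.35 (adjusted p = 0.828). In TAL the levels were low, at 1.38, 1.64 and 0.726 CPM against 4.11, 2.73 and 4.87 CPM (log2 change 1.62, SE 0.39, adjusted p = 0.0598). It was called with no filter on low counts, without sham 2 and without doublet removal (edgeR adjusted p = 0.00458, 0.0225 and 0.0143). Whether the first of these p-values measures the spread over the mice was not tested.

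Summed injury markers (Havcr1, Krt20, Lcn2, Vcam1, Cdkn1a and Spp1, all 6 detected) rose with Agt in these classes. Their sum was 828 to 1752 CPM in sham and 2594 to 4669 CPM in DOCA-salt mice in PT S1, and 90.3 to 180 CPM and 1491 to 3254 CPM in PT S2. Their part in the Agt result was not tested. Agt kept its call in the whole kidney, the PT sum, PT S1, PT S2 and the thin limb under every alternative run, and the whole-kidney change ranged from 1.20 to 1.49.

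**Figure D4:**
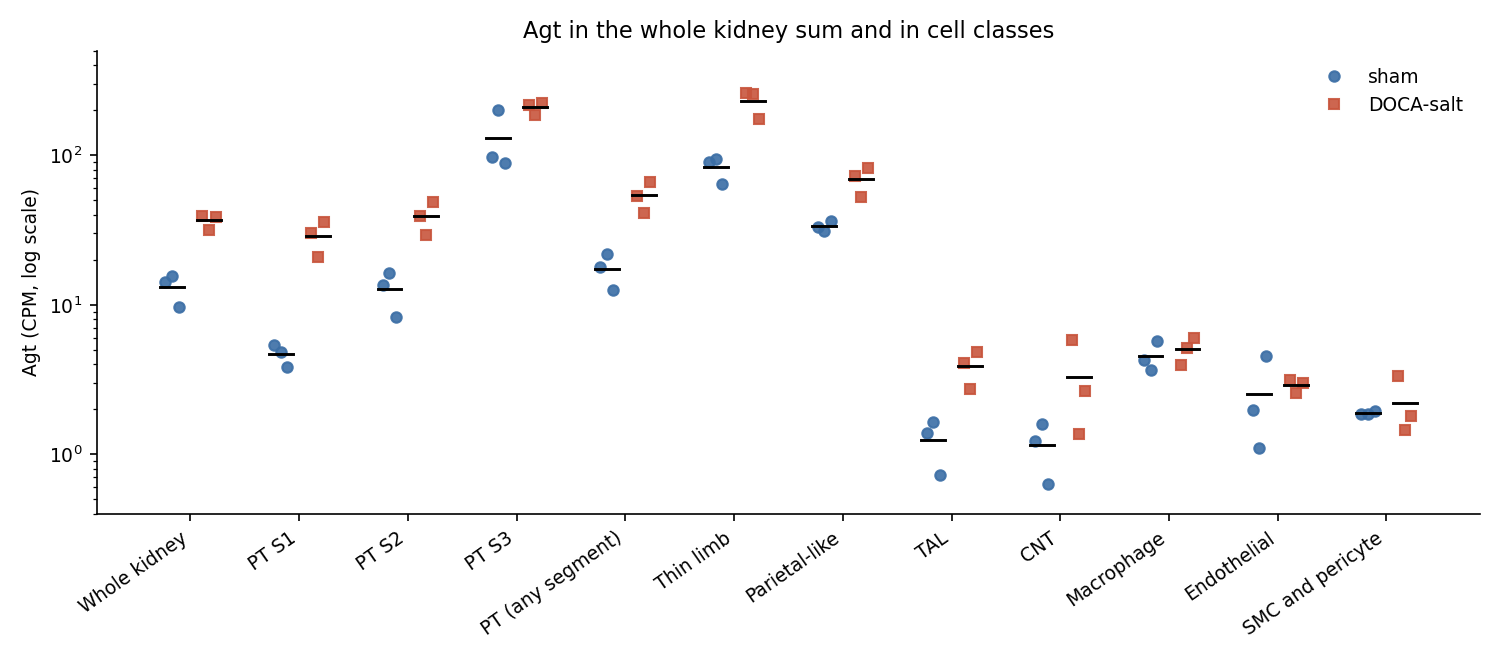
Agt in the whole-kidney sum and in 11 cell classes in CPM on a log axis, with 1 point per mouse and the group means as lines. DOCA-salt mice lie above sham mice without overlap in PT S1, PT S2, PT of any segment, the thin limb, the Parietal-like class and TAL, and overlap with them in PT S3, CNT, macrophages, endothelial cells and the SMC and pericyte class.

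Ace (GRCm39, chromosome 11, 105858469 to 105880790, plus strand) did not change in a called way in the whole kidney, with 12.9, 5.67 and 10.9 CPM in sham and 10.3, 11.4 and 9.90 CPM in DOCA-salt mice (log2 change -0.02, SE 0.27, edgeR adjusted p = 0.973). Of all Ace UMIs, 83.9% of those from sham and 72.6% of those from DOCA-salt mice were in the PT. In PT S2 it had 26.2, 13.8 and 25.3 CPM against 20.7, 27.9 and 24.7 CPM, with overlap. In monocytes, the class with the highest level, sham mice had 304, 112 and 293 CPM and DOCA-salt mice 229, 270 and 138 CPM. They did not differ beyond their spread (log2 change -0.12, SE 0.40, adjusted p = 0.981), in 12 to 19 cells per mouse, where 0.0% of 1421 genes tested were called.

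In the endothelium as a whole Ace fell, from 21.2, 12.3 and 21.5 CPM in sham mice to 12.7, 4.58 and 5.44 CPM in DOCA-salt mice (log2 change -1.30, SE 0.36, edgeR adjusted p = 0.0423), where 11.2% of the genes tested were called. The lowest sham mouse and the highest DOCA-salt mouse overlapped. The call was lost in 5 of 13 alternatives, without sham 1, sham 3, DOCA-salt 2 or DOCA-salt 3 (adjusted p = 0.116 to 0.135) and without doublet removal (adjusted p = 0.0581). This sum joins arterial endothelial cells, with 16.8 to 26.9 CPM in sham mice, and other endothelial cells, with 2.21 to 6.06 CPM. Arterial cells numbered 222 to 279 per sham mouse and 148 to 159 per DOCA-salt mouse, and the other endothelial cells 218 to 279 and 426 to 565. Within arterial cells the change of Ace was -0.60 (SE 0.37, adjusted p = 0.604), where 0.56% of the genes tested were called. In the Parietal-like class Ace had 0, 0.710 and 6.39 CPM in sham and 7.67, 10.0 and 9.22 CPM in DOCA-salt mice (log2 change 1.87, SE 0.60, adjusted p = 0.0413). This call was lost in 6 of 13 alternatives, without each mouse but sham 3 and with the replicate block (adjusted p = 0.0629 to 0.120), and without sham 3 the value was 4.47.

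Enpep (GRCm39, chromosome 3, 129062824 to 129126369, minus strand) rose in PT S2, from 38.5, 58.9 and 41.0 CPM in sham mice to 89.1, 70.0 and 84.9 CPM in DOCA-salt mice. All DOCA-salt mice were higher, and the log2 change was 0.91 (SE 0.17, edgeR adjusted p = 0.00977, and 0.0606 with the replicate block). In PT S1 the groups overlapped, with 42.8, 63.7 and 41.3 CPM against 72.6, 60.9 and 76.7 CPM (log2 change 0.43, SE 0.19, adjusted p = 0.293). In the whole kidney they overlapped too (log2 change 0.29, SE 0.21, adjusted p = 0.396). Without sham 2 the whole-kidney change was 0.59 with a call (edgeR adjusted p = 0.0146).

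In endothelial cells other than arterial ones, Enpep fell from 78.5, 99.5 and 65.1 CPM to 57.2, 53.1 and 60.6 CPM (log2 change -0.55, SE 0.16, edgeR adjusted p = 0.0457), where 8.83% of the genes tested were called. This call was lost in 9 of 14 alternatives, including each mouse but sham 3 left out (adjusted p = 0.0922 to 0.166). The endothelium as a whole gave the opposite sign (log2 change 0.61, SE 0.17, adjusted p = 0.0439), with the changed cell numbers given above, and this call was lost in 10 of 14 alternatives, with a value of 0.11 (adjusted p = 0.799) at the finer clustering. In the SMC and pericyte class Enpep had 122, 207 and 106 CPM in sham and 141, 134 and 113 CPM in DOCA-salt mice, and the groups overlapped (log2 change -0.20, SE 0.22, adjusted p = 0.799).

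Mme (GRCm39, chromosome 3, 63148889 to 63293451, plus strand) rose in 3 classes of the distal nephron. In the distal convoluted tubule (DCT) sham mice had 27.1, 26.0 and 31.1 CPM and DOCA-salt mice 83.1, 69.6 and 88.7 CPM. Mme thus rose by 1.34 on the log2 scale (SE 0.17, edgeR adjusted p = 0.000131), where 7.36% of the genes tested were called. Over 14 alternatives the change ranged from 1.28 to 2.18, always with a call. In IC type B the levels were 67.1, 52.6 and 48.5 CPM against 107, 104 and 109.6 CPM (log2 change 1.05, SE 0.15, adjusted p = 0.00174), where 6.16% of the genes tested were called. In the connecting tubule (CNT) they were 108, 50.7 and 63.3 CPM against 191, 150.1 and 180 CPM (log2 change 1.09, SE 0.23, adjusted p = 0.00508), where 20.8% of the genes tested were called. The groups did not overlap in any of the 3 classes, all DOCA-salt mice being higher, as for 20.9%, 8.43% and 25.4% of the genes tested in DCT, IC type B and CNT.

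In IC type A, where Mme was highest, sham mice had 877, 1023 and 897 CPM and DOCA-salt mice 998, 971 and 1029 CPM, with overlap (log2 change 0.11, SE 0.14, edgeR adjusted p = 0.817). In TAL they had 101, 114 and 106 CPM against 113, 112 and 107 CPM (log2 change 0.04, SE 0.11, adjusted p = 0.923). IC type A held 30.5% of all Mme UMIs of sham and 31.5% of those of DOCA-salt mice, in 1.27% and 1.49% of the cells. The CNT class held a cluster of high UMI totals, with Slc4a9 and Atp6v1g3 of intercalated cells among its leading genes. Without it, a choice made after seeing the data, the change of Mme in CNT was 2.46 on the log2 scale.

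In the PT, the change of Mme differed between the PT S1 class and the small PT S3 class, which does not stand for the whole segment. PT S3 had 139, 109 and 128 CPM in sham and 230, 288 and 239 CPM in DOCA-salt mice, without overlap but without a call (log2 change 0.89, SE 0.25, edgeR adjusted p = 0.171), in a class with few cells where 0.308% of the genes tested were called. With no filter on low counts the change was 1.02 with a call (edgeR adjusted p = 0.036). Whether the p-value without the filter measures the spread over the mice was not tested. PT S1 had 13.6, 13.0 and 18.3 CPM against 13.4, 9.46 and 11.4 CPM (log2 change -0.45, SE 0.18, adjusted p = 0.243). The PT S3 change exceeded the PT S1 change by 1.49 (SE 0.25, edgeR adjusted p = 1.04e-06). As for Agt, this p-value does not measure the gene's own spread over the mice. In the Parietal-like class Mme fell from 212, 205 and 207 CPM to 95.8, 84.6 and 89.3 CPM (log2 change -1.13, SE 0.12, adjusted p = 9.49e-05).

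The Parietal-like class had calls for 5 members, where 23.5% of all genes tested were called, that of Ace being lost in several alternatives. Beside Agt, Ace and Mme, Agtr1a rose there from 8.49, 9.23 and 9.93 CPM to 32.8, 30.3 and 34.4 CPM (log2 change 1.88, SE 0.21, edgeR adjusted p = 0.000123). Enpep fell there from 149, 227 and 154 CPM to 95.6, 75.6 and 97.3 CPM (log2 change -0.91, SE 0.17, adjusted p = 0.00307). The class itself differed between the groups. It had 86 to 131 cells per sham mouse and 213 to 292 per DOCA-salt mouse, its own 5 markers summed to 1647 to 2392 CPM and 921 to 967 CPM, and the 5 general PT markers to 1179 to 2094 CPM and 3322 to 3767 CPM. At the finer clustering 61 to 81 cells per sham mouse and 48 to 49 per DOCA-salt mouse had this name, and a class named from injured tubule markers, absent at the coarser one, had 34 to 75 and 283 to 387. Injury markers summed, at the coarser one, to 3367 to 5279 CPM and 8569 to 16148 CPM. Their part in the members' calls was not tested. At the finer clustering the change of Mme was -0.66 (adjusted p = 0.0287) and that of Enpep -0.59 (adjusted p = 0.144).

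Agtr1a (GRCm39, chromosome 13, 30518942 to 30566850, plus strand) overlaps a long non-coding RNA gene on its own strand, so that reads could be shared. In the SMC and pericyte class sham mice had 161, 172 and 221 CPM and DOCA-salt mice 143, 164 and 194 CPM, and the groups overlapped (log2 change -0.19, SE 0.19, edgeR adjusted p = 0.766). In PT S1, which held 40.6% of its UMIs in sham mice, the levels were 59.3, 66.4 and 45.5 CPM against 62.5, 63.5 and 63.3 CPM (log2 change 0.07, SE 0.15, adjusted p = 0.855). In PT S2 they were 33.7, 39.0 and 30.2 CPM against 43.2, 49.2 and 49.6 CPM, without overlap (log2 change 0.55, SE 0.12, adjusted p = 0.0207), a call lost in 6 of 14 alternatives, among them sham 1, sham 3, DOCA-salt 2 or DOCA-salt 3 left out (adjusted p = 0.0700 to 0.0985). The whole-kidney sums overlapped (log2 change 0.03, SE 0.15, adjusted p = 0.922).

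Agtr1b (GRCm39, chromosome 3, 20368609 to 20421348, minus strand), the second type 1 receptor gene of rodents, was rare. It had 34 UMIs in all sham mice together, 94.1% of them in the SMC and pericyte class, and 78 in the DOCA-salt mice, 80.8% of them there. In this class it had 14.96, 27.8 and 17.6 CPM in sham and 26.6, 37.8 and 38.1 CPM in DOCA-salt mice. The groups overlapped through sham 2, and the log2 change of 0.72 (SE 0.33) was not called (edgeR adjusted p = 0.390).

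Atp6ap2 (GRCm39, chromosome X, 12453960 to 12495037, plus strand) fell in CNT, from 309.6, 289 and 294 CPM in sham mice to 200.1, 187 and 182 CPM in DOCA-salt mice. All sham mice were higher (log2 change -0.78, SE 0.12, edgeR adjusted p = 0.000640), where 20.8% of the genes tested were called. Summed IC type B markers in this class moved with it, from 1512 to 2056 CPM in sham mice to 835 to 1103 CPM in DOCA-salt mice, and all 5 were detected in both groups. Without the cluster of high UMI totals the change was -0.69. In IC type B the levels were 603, 750 and 643 CPM against 573, 477 and 532 CPM, without overlap but without a call (log2 change -0.21, SE 0.14, adjusted p = 0.405). In IC type A they were 438, 475 and 434 CPM against 359, 331 and 325 CPM, also without a call (log2 change -0.40, SE 0.14, adjusted p = 0.195, with 1.76% of the genes tested called). All sham mice were higher for 12.2%, 21.0% and 8.71% of the genes tested in CNT, IC type B and IC type A. In the whole kidney Atp6ap2 stood at 104, 118 and 114 CPM against 109, 98.0 and 113.5 CPM (log2 change -0.19, SE 0.10, adjusted p = 0.247).

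**Figure D5:**
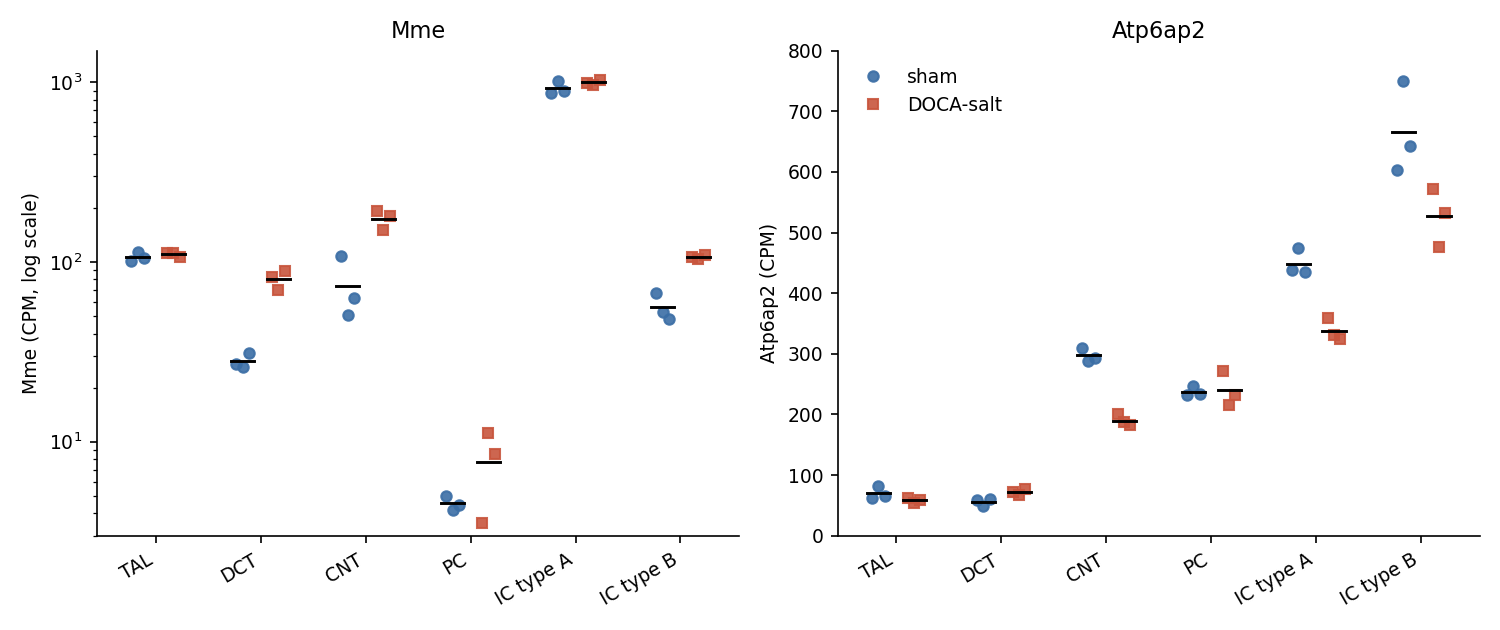
Mme (left, CPM on a log axis) and Atp6ap2 (right, CPM from 0) in 6 classes of the distal nephron and collecting duct, with 1 point per mouse and the group means as lines. Mme is higher in all 3 DOCA-salt mice in DCT, CNT and IC type B and overlaps in TAL and IC type A. All DOCA-salt mice were higher for 20.9%, 25.4% and 8.43% of the genes tested in DCT, CNT and IC type B. Atp6ap2 is lower in all 3 DOCA-salt mice in CNT, IC type A and IC type B, as were 12.2%, 8.71% and 21.0% of the genes tested there.

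Stromal sums (fibroblasts with SMC and pericytes) gave calls for 5 members, Ren1, Agtr1a, Agtr1b and Enpep lower and Ace higher, where 30.2% of the genes tested were called. Fibroblasts numbered 8 to 25 per sham mouse and 217 to 308 per DOCA-salt mouse, while SMC and pericyte cells, where the mean levels of Ren1, Agtr1a, Agtr1b and Enpep were highest, numbered 104 to 134 and 89 to 100. Ace stood at 18.8 to 27.1 CPM in the fibroblasts of DOCA-salt mice, a class with too few sham cells to be tested, and at 0 to 3.63 CPM in the SMC and pericyte class of all mice. Within that class none of the members tested was called after doublet removal with the filter on low counts and all 6 mice, while Ren1 was called without the filter or without sham 2.

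Of the other 21 genes of the pathway, 15 were tested in the whole kidney, with 2 higher and 1 lower, a share near the 17.2% of all genes called. Their median log2 change was 0.02, beside -0.03 over all genes tested. Agtr2, the type 2 receptor, and Mrgprd, Ctsg, Cma1, Mcpt4 and Cpa3 were below the filter on low counts. Over the 20 classes 213 tests gave 7 higher and 19 lower calls, beside 6.48% of the tests of all genes, and Klk1 made up many of the lower ones. Klk1, tissue kallikrein, which can release kinins, fell in the whole kidney from 707, 622 and 1069 CPM to 346, 280.4 and 268 CPM (log2 change -1.54, SE 0.23, edgeR adjusted p = 0.00362). In CNT, its main class, it had 8664, 10584 and 11539 CPM against 1727, 1942 and 2414 CPM (log2 change -2.47, SE 0.20, adjusted p = 7.02e-06). It was also called lower in T cells and macrophages (log2 changes -2.31 and -2.10), which are not known to make it. The part of free RNA in the values of the other classes was not tested.

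In the Parietal-like class, where 23.5% of the genes tested were called and PT and injury markers were higher in DOCA-salt mice, Prcp rose by 0.96 (SE 0.23, edgeR adjusted p = 0.00999) and Ctsa by 0.73 (SE 0.23, adjusted p = 0.0413). Anpep, aminopeptidase N, fell in CNT by 1.14 on the log2 scale (SE 0.30) and in the thin limb by 0.95 (SE 0.18). Lnpep, the angiotensin IV receptor, fell in macrophages from 276, 359 and 294 CPM to 185, 172 and 201 CPM (log2 change -0.84, SE 0.15, adjusted p = 0.00240), where 5.91% of the genes tested were called.

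Rgs2, a regulator that shortens signalling by the angiotensin II receptor, moved in different directions between classes. It fell in TAL from 40.3, 54.3 and 42.7 CPM to 22.0, 25.0 and 19.2 CPM (log2 change -1.03, SE 0.15, edgeR adjusted p = 0.00554). It rose in collecting duct principal cells (PC) from 42.1, 48.9 and 41.7 CPM to 109, 82.4 and 88.4 CPM (log2 change 1.12, SE 0.16, adjusted p = 0.000892, with 7.62% of the genes tested called). In endothelial cells other than arterial ones it rose by 1.18 (SE 0.21, adjusted p = 0.00379), and in the whole kidney by 0.50 (SE 0.12, adjusted p = 0.0246), a call lost without sham 1, sham 3 or DOCA-salt 3 and with the replicate block (adjusted p = 0.0597 to 0.0974). The difference between TAL and PC was not tested. Arap1, which takes part in the trafficking of the type 1 receptor, rose in the whole kidney by 0.44 (SE 0.13, adjusted p = 0.0488), but the call was lost in 8 of 15 alternatives, among them sham 1, sham 3, DOCA-salt 2 or DOCA-salt 3 left out and the replicate block (adjusted p up to 0.194).

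Genes with the pattern most like each member were sought across the 20 class means (Pearson correlation of log2 of mean CPM plus 1, among 11651 genes, over classes that share libraries and depth). Irag1 and Hpse2 were among those most like Ren1 (0.97 each) and had their highest class in common with it. For Agtr1b, Or51e2, Myh6 and Xirp1 reached 1.00, since each was found almost solely in the SMC and pericyte class. Tgm1 and Cbs were among those most like Agt (0.93 each), and Fhl1, Map3k7cl and Bdnf most like Agtr1a (0.93, 0.90 and 0.90). The values were lower for Mme (Tomm40, Fam13a and Gde1, 0.88 to 0.86), Atp6ap2 (Plcg2, Pkib and Kctd16, 0.87 to 0.82), Enpep (Palm, Cpe and Hspa12a, 0.86 to 0.83) and Ace (Nr1h3, Fmo5 and Mocs1, 0.80 to 0.78).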

How the data were processed

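The deposited matrices hold raw UMI counts per gene and barcode, 1 per mouse, which the authors made with Cell Ranger against GRCm39 (version 9.0.0 per the labels' processing notes); the matrix headers name 8.0.1. The processing notes also name Seurat 4.0.0 and R 4.0.3. No column was normalized.

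Each deposited barcode used here had 170 genes and 500 UMIs or more; barcodes above 50% mitochondrial or above 5% hemoglobin UMIs were left out. Those with the highest Scrublet scores were removed at an expected 0.8% per 1000 barcodes, since the automatic threshold marked 0 to 171 per library. Cells were clustered with scanpy 1.11.5 and Leiden (2000 variable genes, 30 components, 15 neighbours, resolution 1). Clusters were named from markers with at least 3 detected. Immune and stromal clusters were clustered again. PT clusters were too, at resolution 2 and after each mouse's mean was subtracted from the components. PT clusters with a segment score under 0.5, or with more leading genes from the markers of another segment, were given no segment. No deposited annotation was used, so classes are rebuilt and can differ from those of the study.

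UMIs were summed per mouse and class and tested with edgeR 4.0.16 (filterByExpr, TMM, quasi-likelihood), with DESeq2 1.42.0 as an alternative, in R 4.3.3. The 3 mice per group are separate animals. Differences of changes between classes had the mouse as a block. On simulated counts, 2-fold changes were recovered for 76% of changed genes in the whole kidney, 52% in the SMC and pericyte class and 47% in PT S3. False calls there were 9 of 183, 7 of 155 and 7 of 149 calls. The counts were drawn with the spread typical of a gene's level, so they do not describe a gene such as Ren1 whose spread differs. CPM values were computed here from the counts. Replicate numbers did not pair the mice. The members and lists were chosen with earlier results of these data known. Named genes were the members, list genes that passed the threshold in the whole kidney or in a class with at least 10 mean CPM or that were not testable, and the 3 genes most like each member. Some genes that this rule names are not reported here. Positions are from GENCODE on GRCm39 and promoters from RefSeq on GRCm38.p6, the build of that table; the 2 builds were not converted.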

Additional observations from a re-analysis of the deposited data

Results flagged for a closer look

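The change from sham to DOCA-salt mice differed between classes for 5 pairs of member and class, tested with edgeR as a difference of changes with the mouse as a block. The PT S3 change of Mme exceeded its PT S1 change by 1.49 on the log2 scale (SE 0.25, adjusted p = 1.04e-06), and for Agt the difference was -1.62 (SE 0.28, adjusted p = 5.22e-06). Both kept their direction and call under every alternative run. Their p-values are those of a normal distribution for change over SE and do not measure each gene's own spread over the mice. The endothelial change minus the PT change was -1.52 for Ace (SE 0.32, adjusted p = 0.00701), -1.24 for Agtr1a (SE 0.27, adjusted p = 0.00818) and -0.36 for Atp6ap2 (SE 0.11, adjusted p = 0.0466), where 12.3% of the 17223 genes tested were called. The Atp6ap2 call was lost in 6 of 8 alternatives, the finer clustering and each mouse but sham 2 left out (adjusted p = 0.0507 to 0.164). At the finer clustering 0 members were called for this pair of sums, with -0.44 for Ace (adjusted p = 0.551) and -0.29 for Agtr1a (adjusted p = 0.758). The endothelial sum joins arterial and other endothelial cells, whose numbers differed between the groups as given above for Ace. Within arterial cells Ace changed by -0.60 (SE 0.37, edgeR adjusted p = 0.604) and Agtr1a by -0.38 (SE 0.41, edgeR adjusted p = 0.798). Atp6ap2 changed there by -0.23 (SE 0.12, edgeR adjusted p = 0.534), where 0.56% of the genes tested were called. The part of cell numbers in these differences was not tested. Single outlying mice were not tested.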

How the results depend on the processing

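Of the members, Mme in DCT, CNT and IC type B, Atp6ap2 in CNT and Agt in the whole kidney, PT S1, PT S2 and the thin limb kept their direction and call under every alternative run. Except where stated, counts of calls under the alternatives are given here without the share of all genes called there. Whether they followed that share was not tested. Members called lower in the whole kidney numbered 0, but 1 with no filter on low counts, with no doublet removal and without Ren1-rich cells. In the classes those called lower numbered 7, but 15 with no filter. Pathway genes called higher in the whole kidney numbered 2, but 1 with DESeq2 size factors, with no filter and with no doublet removal, and those called lower 1, but 2 with no filter. In the classes those called higher numbered 7, but 11 with library size only, 13 with no filter, 11 at no more than 20% mitochondrial UMIs and 4 at Leiden resolution 2. Renin control genes called in the SMC and pericyte class were 1 higher and 0 lower, but 0 higher without Ren1-rich cells, and 1 lower with no filter and with no doublet removal. The direction turned for Agt in the Parietal-like class at resolution 2 (-0.35), for Ren1 in the SMC and pericyte class without Ren1-rich cells (0.22, against -2.53 in the whole kidney, both limited by choosing cells on Ren1 itself), and for the change of Ace in the whole kidney with library size only (0.10), the replicate block (0.057) and no doublet removal (0.0054), where it was not called. The ratio of Ren1-rich cells, sham over DOCA-salt, was 1.21 per cell and 0.989 per SMC and pericyte class cell. For the PT and the endothelium, 0 members differed at resolution 2. The cause of these changes was not tested, except that the filter sets which genes are tested. Ren1 was tested with and without it in the whole kidney and in the SMC and pericyte class. In that class its p-value without the filter did not measure the spread over the mice. Whether this holds for the other calls made without the filter was not tested.

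Leaving out 1 mouse at a time, members called in the whole kidney ranged from 1 to 2 higher and 0 to 1 lower, and in the classes from 10 to 15 higher and 4 to 12 lower. The shares of all genes called in these fits are not reported here. Pathway calls ranged from 0 to 2 higher and 1 to 1 lower in the whole kidney and from 4 to 17 higher and 11 to 22 lower in the classes. Renin control calls ranged from 1 to 3 higher and 1 to 1 lower in the whole kidney and from 1 to 1 higher and 0 to 1 lower in the SMC and pericyte class. Differences of changes numbered 2 to 2 for PT S1 and PT S3 and 2 to 4 for the PT and the endothelium, and the ratio of Ren1-rich cells ranged from 0.937 to 1.55. For these pairs of classes, 74 to 175 of 13237 to 13482 genes and 1071 to 1752 of 17436 to 17569 genes were called. The changes of Ace and Agtr1a in the whole kidney ranged from -0.30 to 0.22 and from -0.10 to 0.20.

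With the replicate number as a block, members called were 1 higher and 0 lower in the whole kidney and 8 higher and 6 lower in the classes. Pathway calls under the block were 0 higher and 1 lower and 4 higher and 13 lower, and renin control calls 2 higher and 1 lower in the whole kidney and 1 higher and 0 lower in the SMC and pericyte class. For the fits with the block, the shares of all genes called are not reported here. Whether the counts followed those shares was not tested. Same-numbered mice had correlations of -0.02, -0.41 and -0.05, so the replicate numbers were not treated as pairs.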

Other observations

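Among Ren1-rich cells without doublet removal, Akr1b7 stood at 1945, 773 and 1029 CPM in sham mice and 74.4, 288 and 42.9 CPM in DOCA-salt mice. Adcy5, an adenylyl cyclase of renin cells, had 48.9, 0 and 45.7 CPM against 158, 162 and 257 CPM in the same cells. These cells are few and were chosen by their Ren1 UMIs, and the values were not tested.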
